A study of Mus musculus with 4 samples.

Results

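Transforming growth factor β (TGF-β), activins and bone morphogenetic proteins (BMPs) are secreted ligands that bring together type I and type II serine/threonine kinase receptors at the cell surface. The type I receptor then phosphorylates a receptor-regulated SMAD protein, which joins SMAD4 and acts on genes in the nucleus. TGF-β and activin receptors mainly use SMAD2 and SMAD3, whereas BMP receptors use SMAD1, SMAD5 and SMAD9. In the lung the pathway is known for its part in branching of the airways, in fibrosis and in epithelial–mesenchymal transition.

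The genes described here are 55 components of this pathway, chosen by name as ligands, latency proteins, receptors, SMADs, antagonists, regulators and direct targets. Of these, 49 have a mean level among the 17906 genes with one in the deposited table, and all 49 are protein coding. The other 6 (Ltbp2, Bmp3, Bmpr1b, Id4, Grem1 and Tgfbi) are not analysed here. The libraries came from MLE12, a mouse lung epithelial line made from a tumor of mice that carry SV40 large T antigen under a surfactant protein C promoter. Control cells gave 2 libraries and lamin B1 KD cells gave another 2; in the latter, the nuclear lamina gene Lmnb1 was the target of shRNA. The study's methods describe MLE12 controls that express a control shRNA. Both lines grew with 10% fetal calf serum and 2 µg/ml puromycin, and polyadenylated RNA was sequenced by Ion Torrent from 1 µg of RNA. The study lists Lmnb1 shRNAs in the pLKO.1 lentiviral vector, but the labels do not say which of them these cells carried, whether a line was 1 clone, or whether replicates were separate cultures.

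The values are 1 mean per gene over all 4 libraries. A mean of this kind cannot show how a gene differed between lamin B1 KD and control cells, and it has no SD. Since no value can be negative, the mean of either group is at most 2 times the pooled mean, and that of 1 library at most 4 times. Orders between genes below are those of the pooled mean and may differ within a group. The silencing of Lmnb1 itself (pooled mean normalized count 3946) cannot be checked from this mean. The study reports lamin B1 depletion in MLE12 cells, with immunoblot and qPCR. The depth of a single library is unknown, and the pooled means sum to 2.24e+07. To compare genes, each mean normalized count was divided by the length of the longest annotated transcript, and this level per kb is used below unless another scale is named. A percentile is the share of the 17683 genes with a known length that lie below a gene.

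Genes of each role had values, from 0.331 per kb for Bmp7 to 3046 for Ctgf. The median level of the 49 genes was 145 normalized counts per kb, against 94.2 over all genes and 167 over protein-coding genes. Of the 49 genes 31 (63.3%) lay above the median of all genes, a share close to the 60.1% of all protein-coding genes that did so. The 4 highest were Ctgf, a matricellular protein induced by TGF-β (3046 per kb), Bmp1, a metalloproteinase despite its name (2574), Id3, a target of BMP signaling (2016), and Ltbp3, a latent TGF-β binding protein (1984). The 5 lowest, in rising order, were Bmp7, Acvrl1, Fstl3, Bmp6 and Eng. Both lists depended on the length used. On undivided counts Tgfbr2 (7038) stood above Id3 (2576), and per kb of coding sequence above Ltbp3 (3963 against 3023). Per kb of the median transcript, Smad3 (7119) and Smad4 (4214) stood above Bmp1 (3977) and Ctgf (3163). On that scale Inha (11.7) stood below Bmp6 (15.1).

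**Figure D1:**
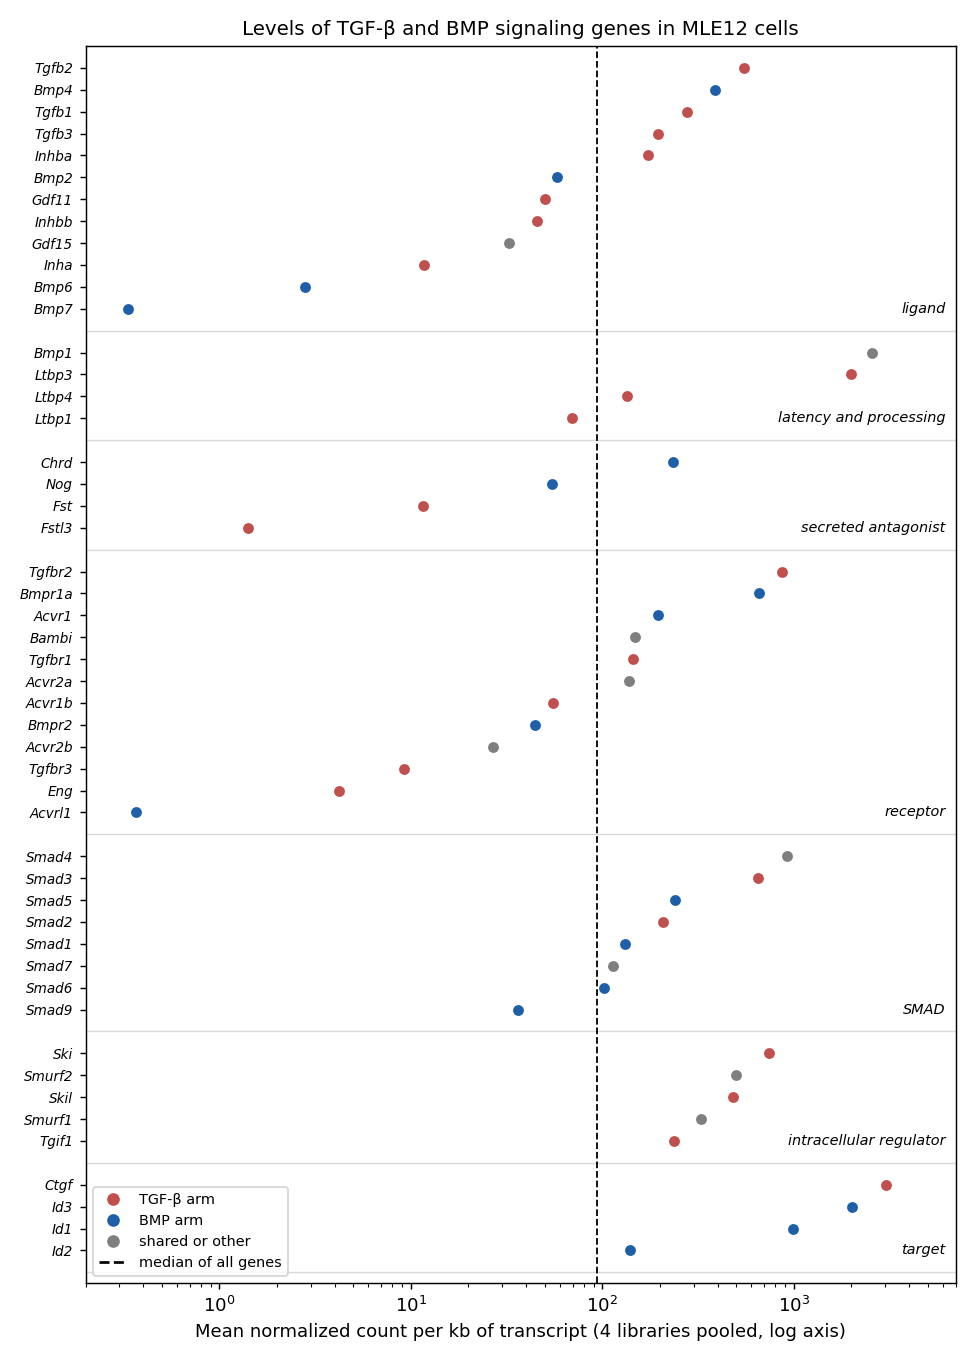
Mean normalized count per kb of transcript (log axis) of the 49 genes, by role, with each point the authors' mean over 4 libraries and the dashed line at the median of all genes (94.2). Targets and intracellular regulators all lie to the right of the line, while ligands and receptors fall on both sides of it.

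Among the ligands, Tgfb2 and Bmp4 stood highest per kb of the longest transcript, but the place of Bmp4 depended on the length used. Inhba was above Bmp4 on undivided counts (1112 against 801) and per kb of coding sequence (875 against 655). Tgfb1 was above Bmp4 per kb of the median transcript (1017 against 745). Tgfb2 had a level of 552 per kb (pooled mean normalized count 2823), Tgfb1 of 277 (712) and Tgfb3 of 196 (663). These 3 isoforms signal through the same type I and type II receptors. Tgfb2 was 2.00 times Tgfb1 per kb of transcript, the lowest ratio of 4 length scales (undivided, per kb of the longest transcript, of the median transcript and of coding sequence), and up to 3.97 times on the others. Inhba, which encodes the βA chain of activin, reached 174 per kb, and Inhbb, the βB chain, 45.4. The α chain gene Inha, needed for inhibins, had 11.7 per kb. Thus the α chain was the lowest of the 3 activin and inhibin chains. Gdf11, an activin-like ligand, had 50.2 per kb. Gdf15, a distant family member known as a stress-induced factor, had 32.7.

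Of the BMP ligands, Bmp4, a ligand of lung branching, was at 388 per kb and Bmp2 at 57.7. Bmp6 and Bmp7 were far lower, with pooled mean normalized counts of 10.1 and 1.22. Exons of Bmp6 overlap 224 bases of Txndc5 on the opposite strand, 6.23% of its longest transcript, and reads from that stretch cannot be assigned. For Bmp7 neither group can have had a mean above 2.43, near the lowest value in the table (1.16). The median over the 7 ligands of the TGF-β arm was 174 per kb and that over the 4 BMP ligands was 30.2. The BMP list leaves out Bmp5, which was named here after its value was seen. Bmp5 had 812 per kb, above each of the 12 ligands in the list.

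Latency and processing genes included some of the most abundant members. TGF-β is secreted in a latent form that latent TGF-β binding proteins anchor in the matrix. Ltbp3 was at 1984 per kb, Ltbp4 at 135 and Ltbp1 at 69.7. Ltbp3 was thus 14.7 times Ltbp4, and up to 53.0 times when the median transcript length was used. Bmp1 (pooled mean normalized count 13807), the member with the highest count, encodes a proteinase that matures procollagens and cleaves chordin. Chrd, which encodes chordin, was the highest of the secreted antagonists at 234 per kb. Nog, encoding noggin, another antagonist that binds BMPs, was at 54.5. The activin-binding antagonists were lower, with Fst (follistatin) at 11.6 and Fstl3 at 1.42. Fstl3 shares 1157 bases of its exons with Prss57 on the opposite strand, 59.2% of its longest transcript, so its low value is uncertain.

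In the pooled mean the main type II receptor gene was the higher for TGF-β, and the main type I receptor gene for BMP. Tgfbr2, the type II receptor of TGF-β, had 870 per kb, and Tgfbr1, its type I partner, 145. For BMPs the type I receptor gene Bmpr1a had 661 per kb and the type II receptor gene Bmpr2 had 44.3. Tgfbr2 was therefore 5.99 times Tgfbr1, whereas Bmpr1a was 14.9 times Bmpr2. Over the length scales these ratios ran from 2.66 to 8.42 and from 6.89 to 24.1. Bmpr2 has the longest transcript of the list, at 12.899 kb, but undivided counts gave the same order, with 7038 for Tgfbr2, 836 for Tgfbr1, 3938 for Bmpr1a and 572 for Bmpr2. On GRCm38 Tgfbr2 spans chr9:116084293-116175360 (minus strand) and Tgfbr1 chr4:47353222-47414931 (plus strand). Bmpr1a spans chr14:34410734-34503341 (minus strand) and Bmpr2 chr1:59763400-59879014 (plus strand). Exons of Bmpr1a overlap 290 bases of an antisense gene, Gm17110.

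The type II receptors that activins and BMPs share differed too. Acvr2a had 139 per kb and Acvr2b 26.8, a ratio of 5.17 that ran from 3.11 to 9.68 over the length scales. Exons of Acvr2a overlap 446 bases of Orc4 on the opposite strand. Acvr1, a type I receptor of BMPs, was at 195 per kb, and Acvr1b, a type I receptor of activin, at 55.0. Bambi, a decoy receptor that lacks the kinase domain, was at 148 per kb. Its order with Tgfbr1 depended on the length used, since Bambi was at 962 and Tgfbr1 at 554 per kb of coding sequence, but at 148 and 457 per kb of the median transcript. The coreceptor genes of TGF-β were low, with Tgfbr3 (betaglycan) at 9.20 and Eng (endoglin) at 4.19. Acvrl1, the type I receptor known from endothelial cells, had a pooled mean normalized count of 1.33, so that neither group can have had a mean above 2.67. Endoglin is known from endothelial cells as well, and of 4 endothelial marker genes Pecam1 had a pooled mean normalized count of 6.71, Kdr of 14.7 and Tek of 171, with Cdh5 not analysed here.

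Per kb of transcript every SMAD gene except Smad9 was above the median of all genes, but per kb of coding sequence 4 of the 8 were, with 1 of the 4 SMADs assigned to the BMP arm. Smad4, the common partner, was highest at 925 per kb. Of the SMADs of TGF-β and activin, Smad3 had 652 per kb and Smad2 207. Of those of BMP, Smad5 had 239, Smad1 131 and Smad9 36.4. Smad3 was 2.73 times Smad5 per kb, and from 2.11 to 13.4 times over the 4 length scales. The inhibitory SMADs were near each other, with Smad7 at 114 and Smad6 at 102, and their order depended on the length used. The order of Smad4 and Smad3 did so as well: undivided counts were 3131 for Smad4 and 3317 for Smad3.

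The intracellular regulators were all above the median of all genes. Ski and Skil, corepressors that bind SMADs, had 741 and 479 per kb. Smurf2 and Smurf1, ubiquitin ligases of receptors and SMADs, had 501 and 328. Tgif1, a homeobox corepressor of SMAD2 and SMAD3, had 237. These 5 genes lay between percentiles 65.2 and 85.8, the narrowest range of the 7 roles.

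The target genes are Ctgf for TGF-β and 3 Id genes for BMP. Ctgf (named Ccn2 in newer annotations) spans chr10:24595442-24598683 (plus strand) and stood at percentile 97.6. Its exons overlap 665 bases of Gm15270 on the opposite strand. The Id genes encode inhibitors of basic helix-loop-helix factors and are classical targets of BMP. Id3 was at percentile 95.8, Id1 at 89.7 and Id2 at 55.8. On undivided counts Id2 (276.5) was level with the median gene (276.7). Id3 was 2.03 times Id1, and Id1 was 7.06 times Id2. Ctgf was 1.51 times Id3 per kb of transcript, but the pair were level per kb of coding sequence (ratio 1.01). All 4 genes respond to other signals too, so their levels are not a readout of 1 arm.

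**Figure D2:**
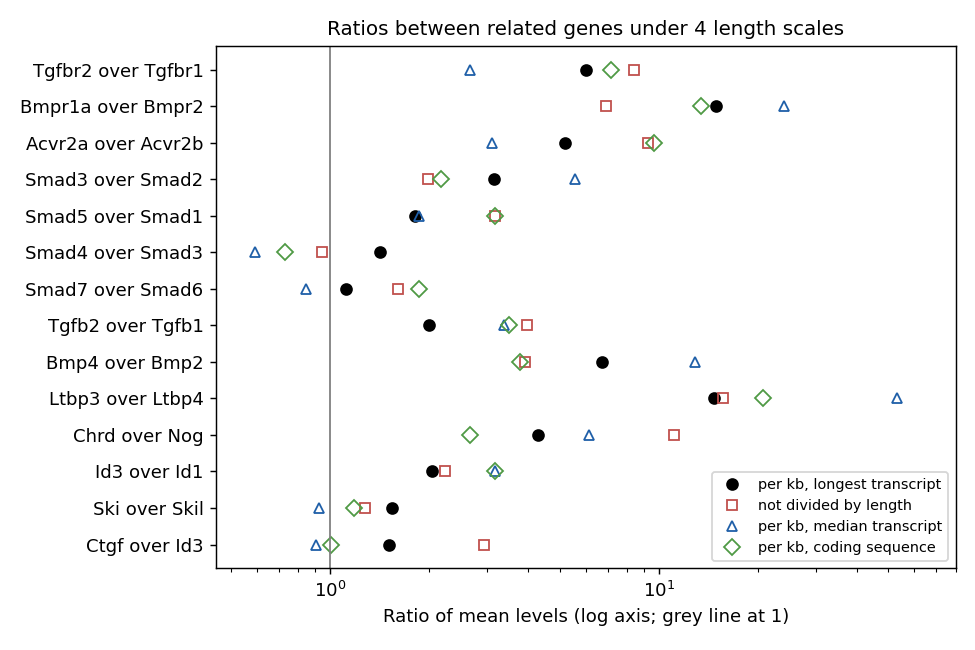
Ratios of the pooled mean levels of 14 pairs of related genes (log axis), on 4 length scales. In 10 pairs the first gene is the higher on every scale, and in 4 (Smad4 and Smad3, Smad7 and Smad6, Ski and Skil, Ctgf and Id3) the points fall on both sides of 1.

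The arms were compared by their medians, with no test, since the genes of an arm are not replicates. The TGF-β arm, with 23 genes, had a median of 174 per kb, from 1.42 for Fstl3 to 3046 for Ctgf. The regulators Ski (741), Skil (479) and Tgif1 (237) and the Ltbp genes count in this arm, while the BMP arm has no gene of these roles. The BMP arm, with 17 genes, had a median of 131, from 0.331 for Bmp7 to 2016 for Id3. The median of the BMP arm was therefore 0.755 of that of the TGF-β arm, a small distance beside the quartiles of each arm, which were 47.8 and 515 for TGF-β and 44.3 and 239 for BMP. Of the TGF-β arm 14 genes lay above the median of all genes (60.9%), and of the BMP arm 10 (58.8%). Per kb of coding sequence, where nearly all genes in the background code for protein, the numbers were 13 (56.5%) and 7 (41.2%). Over receptors and receptor-regulated SMADs alone, with 7 genes in each arm, the medians were 145 and 131. Within single roles the order was mixed. Over receptors alone the medians were 55.0 for 5 TGF-β genes and 119 for 4 BMP genes. Over secreted antagonists, with 2 genes in each arm, they were 6.49 and 144. Among ligands, SMADs and targets the BMP median was the lower. Without the targets the median of the TGF-β arm was 160, and that of the BMP arm was 0.501 of it. The 9 shared genes, which include Smad4, Smad7, Acvr2a and Bmp1, had a median of 148.

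**Figure D3:**
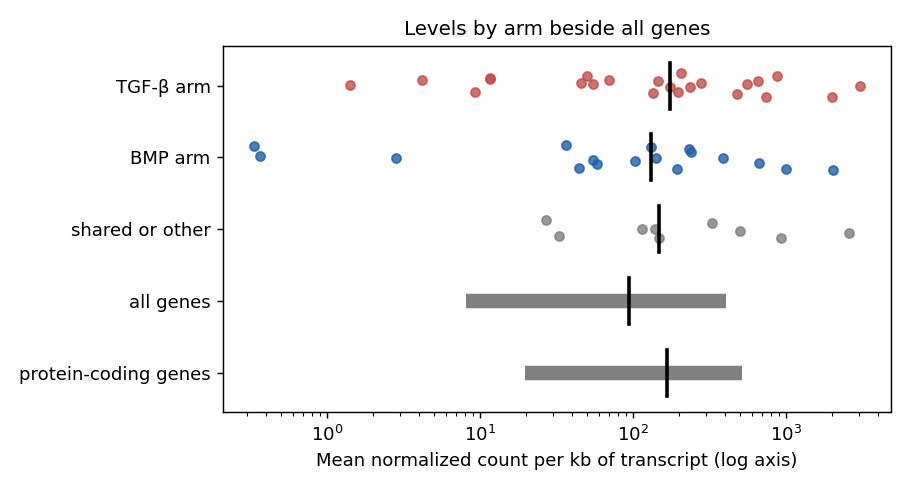
Levels per kb (log axis) of the genes of each arm, 1 point per gene and a black bar at the median, above the quartile range (grey) and median of all genes and of protein-coding genes. The TGF-β arm (median 174) and the BMP arm (131) overlap over most of their range, with protein-coding genes at 167.

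Short stretches at gene starts were read for letters known to bind SMADs, to show where such letters occur in members of each arm. Promoter windows of RefSeq on GRCm38.p6, from 250 bases before to 50 after each start, were found for 34 members (45 windows). The remaining members, among them Smad7, Smad2, Smad4, Bambi, Ctgf, Skil and Bmp1, had no window and were not searched. The palindrome GTCTAGAC, a high-affinity SMAD3 and SMAD4 box, was in 1 of the 45 member windows, that of Smad6, and in 0.213% of all 32851 windows. It starts 4 bases before the gene start. GGCGCC, a GC-rich box of SMAD1 and SMAD5, is a palindrome too and was in 13 of the 45 member windows, from 11 members. It occurs in 11.9% of all windows, and member windows held more CpG (median 25) than all windows (median 7). Capitals mark the box in the stretches below, written on the strand of the gene. Matches are letters only, and binding was not measured.
Smad6 (chr9:64022045-64022074, minus strand): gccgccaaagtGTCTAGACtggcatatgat
Id2 (chr12:25096306-25096335, minus strand): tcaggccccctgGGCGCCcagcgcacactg
Bmpr1a (chr14:34502727-34502756, minus strand): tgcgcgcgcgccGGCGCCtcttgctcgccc
Tgfbr1 (chr4:47352977-47353006, plus strand): ggctggagtaaaGGCGCCcagcggtgaggg

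Id2, whose window holds the GC-rich box, was the lowest of the 3 Id genes, and the window of Id3, the highest, holds neither box. No window was found for Id1. Smad6 stood at percentile 51.0. The GC-rich box thus occurred in genes of both arms, and at levels from percentile 39.6 (Smad9) to percentile 85.8 (Ski).

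Of 70 other genes of the pathway, 52 have a mean level. Of these 52 genes, 27 lay above the median of all genes, against 60.1% of all protein-coding genes. The 5 highest were Fstl1, a secreted glycoprotein related to follistatin (3252 per kb), Dcn, the proteoglycan decorin that binds TGF-β (2612), Fkbp1a, which binds type I receptors (1741), Thbs1, thrombospondin 1, an activator of latent TGF-β (1180), and Ppm1a, a phosphatase of SMADs (920). At the other end 10 genes had a pooled mean normalized count under 10, among them Acvr1c, a type I receptor of Nodal (2.87). The remaining 18 are not analysed here.

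The labelled cell type was checked against markers. Alveolar type II genes were led by Sftpb (surfactant protein B, 3996 per kb), with Sftpc at 1127 and Nkx2-1 at 949, and 4 of the 6 with a value were above the median of all genes. The other 2 were low: Napsa (napsin A) was at 7.18 per kb and Sftpa1 had a pooled mean normalized count of 1.57, and Sftpd and Lamp3 are not analysed here. All 4 alveolar type I genes were above the median of all genes, the highest being Aqp5 (3183 per kb). Of the 5 epithelial genes 2 were above it, Krt8 (4865) and Cdh1 (330), while Epcam was at 37.9, Krt18 at 8.96 and Cldn4 at 1.83. Of 5 fibroblast genes Dcn alone was above it, with Col1a1 at 22.0 per kb and Col1a2 at 0.811. The highest endothelial gene was Tek (36.8) and the only leukocyte gene with a value was Cd68 (41.8).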

How the data were processed

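RNA-seq of 2 control and 2 lamin B1 KD MLE12 samples was used, grouped by the sample labels. Reads were trimmed (Reaper), mapped to mm10 (STAR) and their counts normalized with DESeq2 by the authors. Tool versions, the read counter and its use of strand were not given in the sources used here. Each gene in the deposited table has 1 signal value, the mean over 4 libraries of these normalized counts. The table also holds their own comparison of the groups (log2 fold changes, p-values and adjusted p-values), which was neither used nor printed. With no values per library, the planned test of lamin B1 KD against control was not run. Of 18018 rows, 112 have no mean level. Means were divided by the longest transcript in GENCODE M21 (GRCm38, the assembly of mm10), matched by identifier for 98.8% of genes. Exon overlaps came from that annotation, and 16 members overlap another gene. Copies were searched with BLAST 2.17.0 (95% identity, at least 100 bases): 2 members, Smad9 and Tgfbr2, share short stretches with genes elsewhere in the genome, and none shares 20% of its transcript with such a gene. Without a known strand setting, overlapping reads cannot be assigned. Python 3.11.15, numpy 2.4.6, pandas 2.3.3 and matplotlib 3.10.9 were used. All members are named, with the 5 highest of the other pathway genes and the highest markers of each cell type. The genes and lists were chosen with earlier results of these data known. Alternatives were other lengths, detection levels, backgrounds and makeups of the arms.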

Additional observations from a re-analysis of the deposited data

How the results depend on the processing

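The BMP arm had the lower median under each of the 7 alternatives tried. Its ratio to the TGF-β arm ran from 0.501 without the target genes to 0.905 over receptors and receptor-regulated SMADs, against 0.755 as reported. Only the alternative over receptors and receptor-regulated SMADs left out Ski, Skil and Tgif1, regulators assigned to the TGF-β arm, and it left out other roles too. No alternative added Bmp5. Within single roles the order was mixed, with the BMP median the higher for receptors and for secreted antagonists. The lower median of the BMP arm therefore depends on which roles each arm holds. The number of members with a mean normalized count of at least 2 was 47, and 38 reached 100. The number above the median gene was 31, but 20 where the background held only genes with a mean normalized count of at least 10, since that removes low genes from the background, and 23 against protein-coding genes, an alternative chosen after seeing the data. The percentile of a member moved by over 10 points for 10 of the 49 genes on undivided counts, for 10 per kb of the median transcript and for 12 per kb of coding sequence. The background changed as well, to 17906 genes for undivided counts and 13921 genes for coding sequence. No paired analysis was possible because the table holds 1 mean per gene over all libraries. For the same reason no replicate was left out, and other normalizations, filters on counts and the test between groups were not run. Differences between genes have no error, so small ratios cannot be ranked, and the order of genes within either group is not known.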
